A study of Neurospora crassa with 2 samples.

Results

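Genes for ribosome biogenesis and rRNA processing were examined in RNA sequencing of 2 strains of the filamentous ascomycete fungus Neurospora crassa, the wild type and one in which upf1 is knocked out. They were chosen by their deposited gene description (ribosome biogenesis, ribosome assembly, rRNA, nucleolar, U3 small and similar words), and 52 of the 9454 genes in the table matched. Both strains were grown without any specific treatment in 2% glucose medium under constant light and were harvested as hyphae at an age of 2 days. Each strain is represented by 1 library of polyadenylated RNA pooled from 3 independently grown flasks. No label states the strain background, the mating type or how much of upf1 was deleted.

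Ribosomes are built in the nucleolus, where RNA polymerase I makes a long precursor rRNA that is folded, chemically modified and cut while ribosomal proteins join it. The U3 small nucleolar ribonucleoprotein starts the making of the small (40S) subunit, other assembly factors make the large (60S) subunit, and small nucleolar RNAs guide methylation and pseudouridylation. The roles given below are those of the budding yeast proteins of the same name unless another species is named. UPF1 is an RNA helicase needed for nonsense-mediated mRNA decay, which removes transcripts whose stop codon is read as premature, and the comparison addresses which transcripts differ in amount when it is missing.

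With 1 library per strain there is no replicate check, so no p-value is given and every statement compares these 2 libraries. Levels are the authors' RPKM values (reads corrected for the length of the gene model in kilobases and for the library total). A ratio is the gene's reads over the library total in the knockout divided by the same in the wild type, and the interval behind it is an exact Clopper-Pearson 95% interval that covers counting error only. The table held 56306422 reads for the knockout and 28189643 for the wild type, and the members had 1097 to 28174 and 428 to 12020 reads each. The targeted gene upf1 (NCU04242, RefSeq symbol prd-6) stood at 2.78 RPKM in the knockout against 22.6 RPKM in the wild type, in the direction of the labels. Of 8 conidiation markers 5 were at least 2-fold higher and 2 at least 2-fold lower in the knockout library, and their summed level was 3974 against 16863 RPKM, of which the hydrophobin gene eas held 1619 and 15983 RPKM. Of 6 mating markers 4 were found, with 1 higher (asd-1) and 1 lower (poi-2). Their summed level was 79.2 against 24.9 RPKM, of which asd-1 held 74.2 and 16.1 RPKM and poi-2 1.54 and 7.09 RPKM. None of the markers found was at 0, and their part in the results below was not tested.

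As a group these genes differed little between the strains. At 2-fold on the scale of log2(RPKM + 1), 1 of the 52 members was higher in the knockout library, against 16.5% of the 7367 eligible genes (5 RPKM or more in 1 library or both), and none was lower, against 5.52% of those genes. All 52 members passed that filter on low values. At 1.5-fold, a threshold added after the data were seen, 5 members were higher, against 28.8% of all eligible genes, and none was lower, against 12.7%. The median log2 ratio of the members was 0.13, beside 0.15 for all eligible genes, and 26 members lay above and 26 below that median gene. The interquartile range of the members was -0.11 to 0.37 and that of all eligible genes -0.28 to 0.69, and 45 of the 52 members lay inside the latter. Among genes of at least 20 RPKM in 1 library the picture was similar, with 1 of 44 members higher and none lower, beside 16.2% and 6.5% of all such genes. In bulk RNA, fewer cells that express a gene and less of its RNA per cell cannot be told apart.

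**Figure D1:**
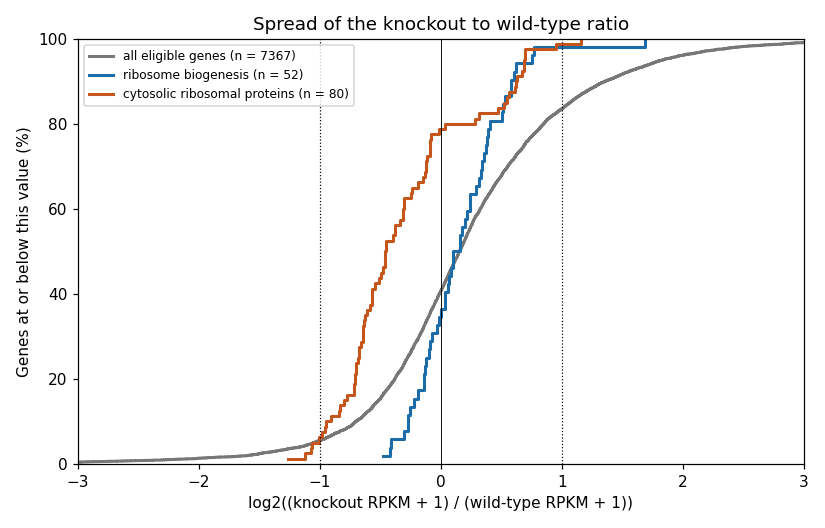
Cumulative share of genes (%) by log2 ratio of knockout to wild-type RPKM with a pseudocount of 1, for all 7367 eligible genes, the 52 ribosome biogenesis genes and 80 cytosolic ribosomal protein genes; dotted lines mark 2-fold. The ribosome biogenesis curve crosses 50% near the curve of all genes but is steeper, and the ribosomal protein curve lies to the left of both, with a median of -0.46.

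The counting interval of the ratio lay above 1 for 30 members (57.7%), below 1 for 15 (28.8%) and included 1 for 7. Over all eligible genes 53.7% of the intervals lay above 1 and 35.5% below. Set against the ratio of the median eligible gene, 1.12, instead of 1, the intervals of 22 members lay above it and those of 25 below, beside 44.1% and 44.7% of all eligible genes, so the larger number above 1 depends on the scaling. How much of such a difference separate cultures of 1 strain would show was not measured. The summed reads of the members made up 0.430% of the knockout library total (exact binomial interval 0.429% to 0.432%). In the wild type they made up 0.373% (0.371% to 0.375%), a ratio of 1.15 (1.15 to 1.16). This stands beside 1.12 for the median eligible gene, and its interval covers counting error only. NCU00115 alone held 18176 of the 256759 member reads in the knockout library and 2764 of 110125 in the wild type. The order of the members by RPKM was largely shared, with a Spearman rho of 0.92 across the 52 genes, beside 0.85 across all eligible genes. These are descriptions across genes of 1 pair of libraries, and genes are not independent replicates.

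Levels ranged from 5.34 to 229.7 RPKM in the wild type and from 7.27 to 267 RPKM in the knockout. The most abundant member in both libraries was the gene of fibrillarin (NCU03702), the methyltransferase of box C/D small nucleolar ribonucleoproteins, at 267 RPKM in the knockout against 229.7 RPKM in the wild type. In the wild type the next were IMP3 (NCU01008) at 124 RPKM and nop-58 (NCU03396) at 102 RPKM. The least abundant in both was the gene of the acetyltransferase Kre33 (NCU02284), at 7.27 and 5.34 RPKM. The gene described as FCF2 that is labelled NCU00115 ranked 5 in the wild type and 2 in the knockout.

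**Figure D2:**
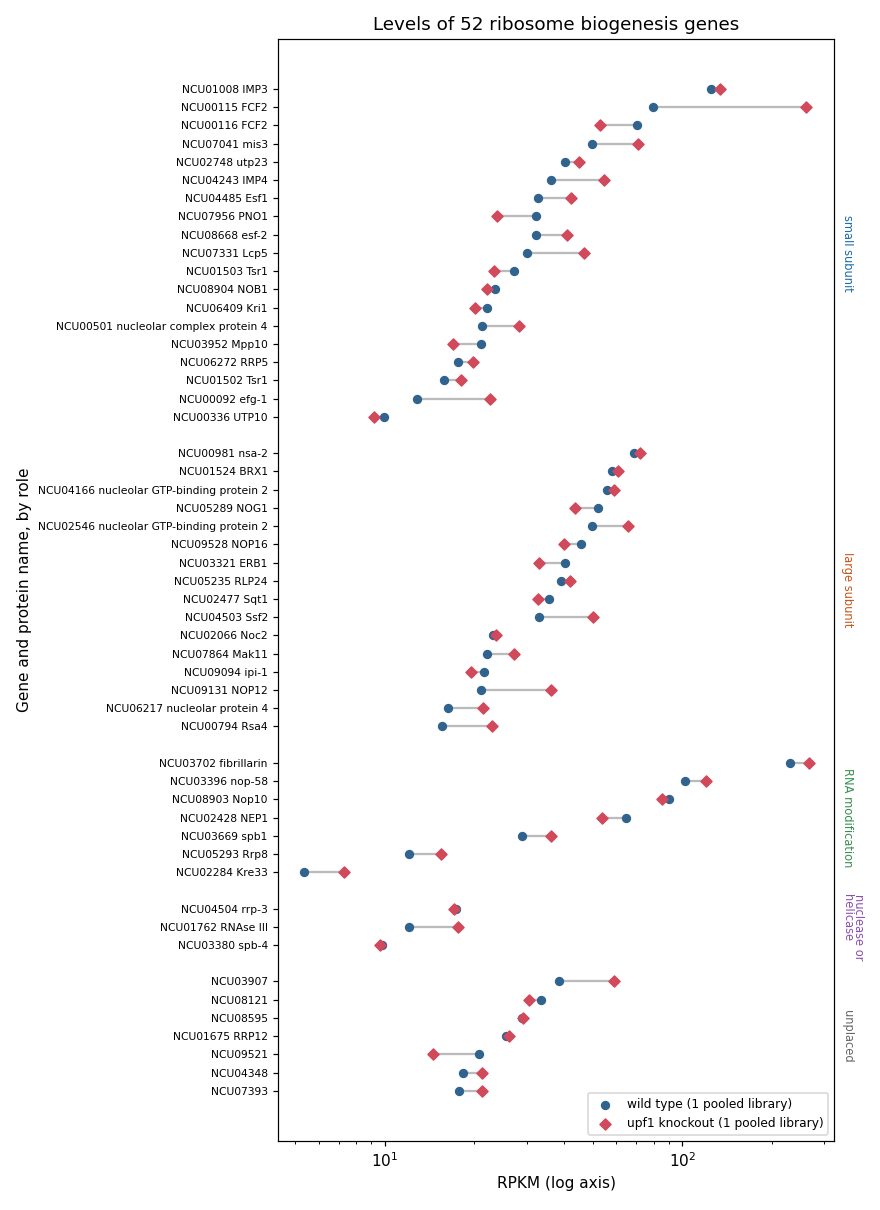
RPKM (log axis) of each of the 52 genes in the wild-type library (circles) and the upf1 knockout library (diamonds), ordered within role by wild-type level; each point is 1 pooled library. Most pairs of points lie close together, and NCU00115 has the widest gap, at 79.9 and 260.2 RPKM.

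The member that stood out was NCU00115, described as rRNA-processing protein FCF2, a factor needed for the early cuts that release the small subunit rRNA. It had 18176 reads and 260.2 RPKM in the knockout library, against 2764 reads and 79.9 RPKM in the wild type, 3.26-fold higher (3.13 to 3.39). It was separated from the next member by 0.92 on the log2 scale, while the other 51 members together spanned 1.25. Across the table a log2 ratio as large as its 1.69 was not rare, being reached by 468 eligible genes, or 6.35%. Its neighbour NCU00116, transcribed in the opposite direction from a start 390 bp away, carries the same description and went the other way, at 52.7 RPKM in the knockout against 70.3 RPKM in the wild type (ratio 0.7502, 0.723 to 0.779). RefSeq gives NCU00116 the symbol aab-1, the name of a Neurospora CCAAT-binding factor subunit, so its symbol and its description name different proteins. Which of the 2 gene models encodes the FCF2 protein was not tested. Without the 6 members that share a protein name with another member, a set chosen after the data were seen, 0 of 46 were 2-fold higher.

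The 19 members with a role in small subunit assembly had a median log2 ratio of 0.16, with NCU00115 higher at 2-fold and no other. Among the proteins of the U3 ribonucleoprotein, 3 that form 1 subcomplex differed from each other. IMP4 (NCU04243) was higher in the knockout, at 54.5 RPKM against 36.1 RPKM (ratio 1.51, 1.44 to 1.59). IMP3 had 134 RPKM in the knockout against 124 RPKM in the wild type (1.08, 1.03 to 1.12). Mpp10 (NCU03952) was on the lower side, at 16.9 RPKM against 21.1 RPKM (0.803, 0.755 to 0.853). The intervals of these 3 ratios did not overlap, but they cover counting error only. At this depth narrow intervals are common, as over all eligible genes 53.7% lay above 1 and 35.5% below. IMP4 is also the gene next to the deleted upf1. Lcp5 (NCU07331), also U3-associated, stood at 46.7 and 30.0 RPKM (1.55, 1.45 to 1.66), but its gene model overlaps that of a neighbour by 99 bp, and no source used here says whether counting used the strand. The scaffold protein gene UTP10 (NCU00336) had 9.21 and 9.95 RPKM (0.925, 0.870 to 0.984).

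Other members given a role in small subunit assembly differed in direction. efg-1 (NCU00092) had 22.5 RPKM in the knockout against 12.8 RPKM in the wild type, from 1517 and 428 reads (1.76, 1.58 to 1.96). This was the second-largest ratio of all members, but not after centring in bins of gene model length. The gene of mis3 (NCU07041), named after the fission yeast protein related to budding yeast Krr1, had 71.2 and 49.7 RPKM (1.43, 1.36 to 1.51), whereas Kri1 (NCU06409), the binding partner of Krr1, had 20.05 and 22.04 RPKM (0.909, 0.855 to 0.968). The genes of nucleolar complex protein 4 (NCU00501), Esf1 (NCU04485) and esf-2 (NCU08668) had ratios of 1.34, 1.29 and 1.28. Those of utp23 (NCU02748) and RRP5 (NCU06272), the last of which acts on both subunits, each had a ratio of 1.12, close to the 1.12 of the median eligible gene.

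Factors known from late small subunit maturation also differed in direction. PNO1 (NCU07956), an RNA-binding protein that works with the endonuclease NOB1, had 23.8 RPKM in the knockout against 32.1 RPKM in the wild type (0.739, 0.673 to 0.813). NOB1 (NCU08904), which makes the final cut of the small subunit rRNA, had 22.1 and 23.5 RPKM, and its interval of 0.866 to 1.02 included 1. For Tsr1, a protein of late 40S precursors, 2 divergent neighbours share the description. NCU01503 stood at 23.2 and 27.2 RPKM (0.855, 0.811 to 0.901) and NCU01502 at 17.98 and 15.8 RPKM (1.14, 1.05 to 1.23), the latter with 29 bp of overlap with another gene model. From the rest of the pathway, the gene of the late factor bystin (NCU08323) had 75.2 and 57.6 RPKM (1.31, 1.26 to 1.36), with 188 bp of overlap with another gene model.

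**Figure D3:**
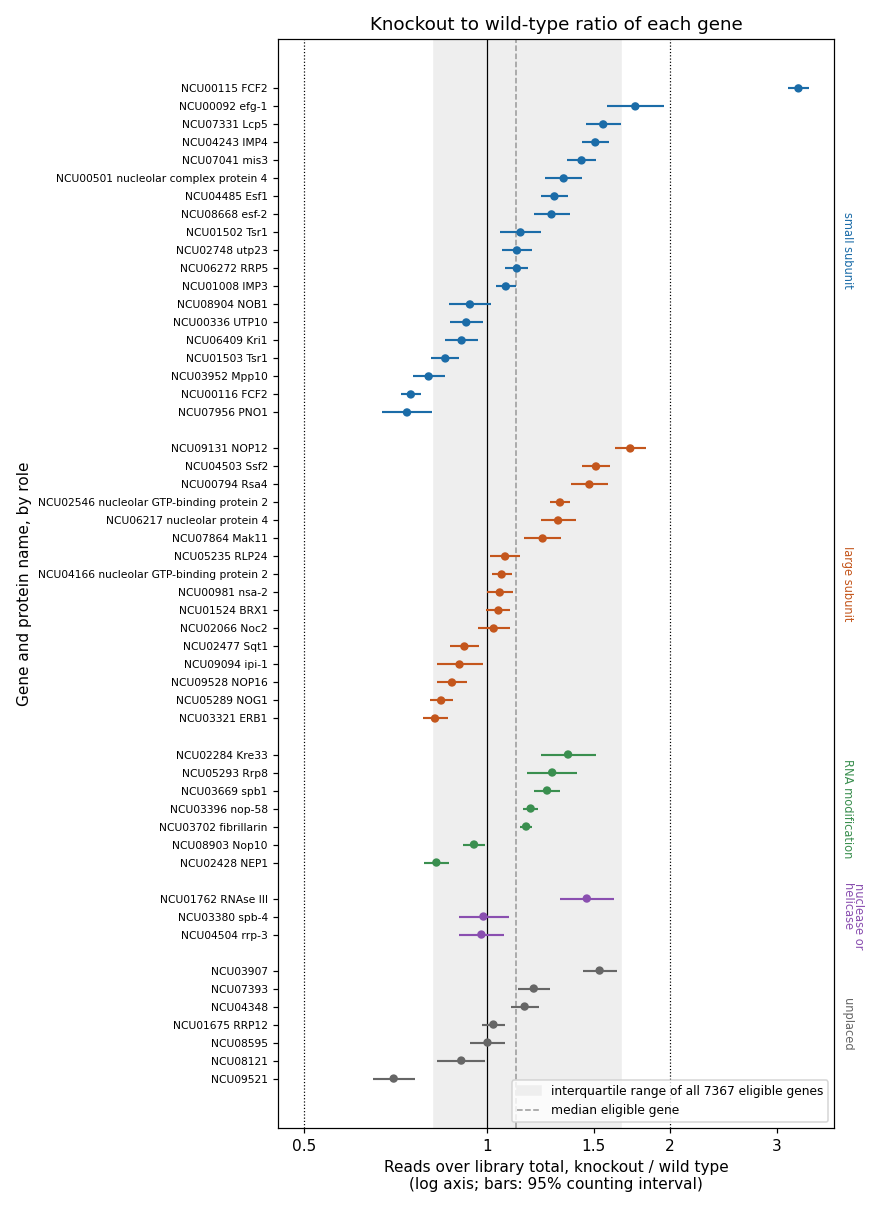
Ratio of reads over library total in the knockout to that in the wild type (log axis) for each of the 52 genes by role, with 95% exact counting intervals; the grey band is the interquartile range of all 7367 eligible genes (0.820 to 1.66), the dashed line their median (1.12) and dotted lines 2-fold. NCU00115 at 3.26 is the member beyond 2-fold, and the lowest is NCU09521 at 0.703.

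The 16 members with a role in large subunit assembly had a median log2 ratio of 0.075 and none reached 2-fold. The gene of nucleolar protein 12 (NCU09131), an RNA-binding protein of large subunit rRNA processing, was the highest, at 36.2 RPKM in the knockout against 21.0 RPKM in the wild type (1.72, 1.62 to 1.83). Ssf2 (NCU04503), a Brix-family factor, had 50.1 and 33.1 RPKM (1.51, 1.43 to 1.60), and Rsa4 (NCU00794), the partner of the remodelling ATPase midasin, had 23.0 and 15.6 RPKM (1.48, 1.38 to 1.58). Midasin itself (NCU06468) was under the filter in both libraries, at 2.71 and 3.18 RPKM. At the other end, ERB1 (NCU03321) had 33.1 and 40.2 RPKM (0.822, 0.784 to 0.862). Pescadillo (NCU00925), which binds ERB1 and was not matched by the description words, had 39.2 and 45.5 RPKM (0.863, 0.824 to 0.904), so both partners were on the lower side.

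The nucleolar GTPases were not alike. NOG1 (NCU05289) had 43.5 RPKM in the knockout against 52.1 RPKM in the wild type (0.841, 0.806 to 0.879), and its gene model length differed between the libraries by 0.843%. The 2 genes described as nucleolar GTP-binding protein 2 had ratios of 1.32 (NCU02546, 65.5 and 49.6 RPKM) and 1.06 (NCU04166, 59.0 and 55.7 RPKM). RLP24 (NCU05235), a placeholder for a ribosomal protein that NOG1 binds, had 41.8 and 39.0 RPKM (1.07). Of the remaining factors, BRX1 (NCU01524), nsa-2 (NCU00981) and Noc2 (NCU02066) had ratios of 1.05, 1.05 and 1.03, Mak11 (NCU07864) and nucleolar protein 4 (NCU06217) had 1.24 and 1.31, and Sqt1 (NCU02477), ipi-1 (NCU09094) and NOP16 (NCU09528) had 0.919, 0.902 and 0.877.

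The 7 members with a role in RNA modification spanned log2 ratios of -0.27 to 0.38, with a median of 0.24. The 2 box C/D proteins were nearly alike, fibrillarin with a ratio of 1.16 (1.14 to 1.19) and nop-58, at 120.1 and 102 RPKM, with 1.18 (1.15 to 1.21). Nop10 (NCU08903), a small protein of the H/ACA ribonucleoproteins that make pseudouridine, had 85.6 RPKM in the knockout against 89.9 RPKM in the wild type (0.953, 0.914 to 0.994). The other H/ACA proteins came from the wider pathway list. The pseudouridine synthase gene CBF5 (NCU01290) had 101 and 137 RPKM (0.738, 0.717 to 0.760), H/ACA subunit 2 (NCU08951) had 145 and 155 RPKM (0.938), and H/ACA subunit 1 (NCU11699) had 195 and 154 RPKM (1.27, 1.23 to 1.31). The 4 H/ACA genes therefore lay on both sides of 1. The rRNA methyltransferase genes spb1 (NCU03669) and Rrp8 (NCU05293) had ratios of 1.26 and 1.28, Kre33 had 1.36 (1.23 to 1.51), and nucleolar essential protein 1 (NCU02428), which methylates a pseudouridine of the small subunit rRNA, had 0.826 (0.789 to 0.865).

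Of the 3 nuclease and helicase genes, the nucleolar RNAse III gene (NCU01762), whose product makes an early cut in the precursor rRNA, had 17.6 RPKM in the knockout against 12.1 RPKM in the wild type (1.46, 1.32 to 1.62). The DEAD-box helicase genes rrp-3 (NCU04504) and spb-4 (NCU03380) had 17.04 against 17.4 and 9.64 against 9.76 RPKM, and both intervals included 1. The 7 members left without a role are RRP12 (NCU01675, ratio 1.03), which takes part in the export of both subunits, and 6 genes whose description names no protein. Among these NCU03907 had the highest ratio, 1.53 (1.44 to 1.64), with 118 bp of overlap with a neighbour. NCU09521, at 14.5 RPKM in the knockout against 20.7 RPKM in the wild type, had the lowest ratio of all 52 members, 0.703 (0.649 to 0.761). NCU07393, NCU04348, NCU08595 and NCU08121 had 1.20, 1.15, 1.003 and 0.908.

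The rest of the pathway was taken from a list of product names that the description words had missed. Of its 26 genes 24 passed the filter, with a median log2 ratio of -0.035, beside 0.15 for all eligible genes. At 2-fold 1 was higher and 1 lower (4.17% each), beside 16.5% and 5.52% of all eligible genes. The one on the lower side was the gene of the RIO1 kinase (NCU08767, RefSeq symbol stk-52), an atypical kinase that acts on late 40S precursors, at 24.3 RPKM in the knockout against 66.7 RPKM in the wild type, 2.75-fold lower (2.61 to 2.89). Its relative RIO2 (NCU07722), of the same stage, had 47.7 and 34.6 RPKM (1.38, 1.30 to 1.47). The one on the higher side was described as an RNA polymerase I polypeptide (NCU05251), at 101 and 38.7 RPKM, 2.61-fold higher (2.42 to 2.82), and it overlaps a neighbouring gene model by 197 bp. The genes of the large polymerase I subunits RPA1 (NCU01638) and RPA2 (NCU08616) had ratios of 0.985 and 0.915. The exosome genes RRP41, Rrp6, Rrp4 and RRP40 had 0.694, 1.010, 1.10 and 1.18.

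The genes of the finished particle had a lower median ratio than the factors that build it. For 80 genes described as 40S or 60S ribosomal proteins the median log2 ratio was -0.46, beside 0.15 for all eligible genes. Names with the word mitochondrial were not left out of this list, and without them the median was also -0.46. At 1.5-fold 30 of them (37.5%) were lower and 10 (12.5%) higher in the knockout, beside 12.7% and 28.8% of all eligible genes, and no ribosome biogenesis member was lower. At 2-fold 5 (6.25%) were lower, near the background of 5.52%, and 1 was higher, against 16.5% of all eligible genes. For 22 translation factor genes the median was -0.24, with an interquartile width of 0.86 beside 0.48 for the ribosome biogenesis members. The ribosomal protein median was negative and below that of the ribosome biogenesis members under each of the scaling alternatives, at -0.61, -0.64 and -0.84. No test of these differences can be made with 1 library per strain.

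Several members start close to a neighbour transcribed in the opposite direction, and the ratios within such pairs were compared. IMP4 starts 1004 bp from the deleted gene itself: upf1 spans 5328106 to 5332056 of supercontig 5 on the minus strand, and IMP4 spans 5333061 to 5335126 on the plus strand (coordinates as deposited, with no build named). The 1.51-fold higher level of IMP4 therefore belongs to the gene next to the deletion, and whether the deletion itself alters it was not tested. In 3 pairs both genes are members. Their log2 ratios differed by 2.10 for NCU00115 and NCU00116, by 0.61 for rrp-3 and Ssf2 with 240 bp between them, and by 0.39 for the Tsr1 genes with 300 bp between them. Fibrillarin lies 361 bp from the divergent gene of the 60S ribosomal protein L17 (NCU03703), which stood at 557 RPKM in the knockout against 881 RPKM in the wild type, a log2 ratio of -0.66 against 0.21 for fibrillarin. There were 25 pairs of a member with an eligible gene outside the group within 1500 bp. Of these partners 5 were 2-fold higher (20%), beside 16.5% of all eligible genes. The 1 partner that was 2-fold lower (4%, beside 5.52%) was upf1 itself, the gene knocked out, so its fall belongs to the design. The partners had a median log2 ratio of 0.43, beside 0.15 for all eligible genes and 0.24 for the members of these pairs. Their interquartile range was -0.13 to 0.83, beside -0.28 to 0.69 for all eligible genes. The share 2-fold higher lay near the background, while the median and both quartiles lay above it. The reason was not tested.

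**Figure D4:**
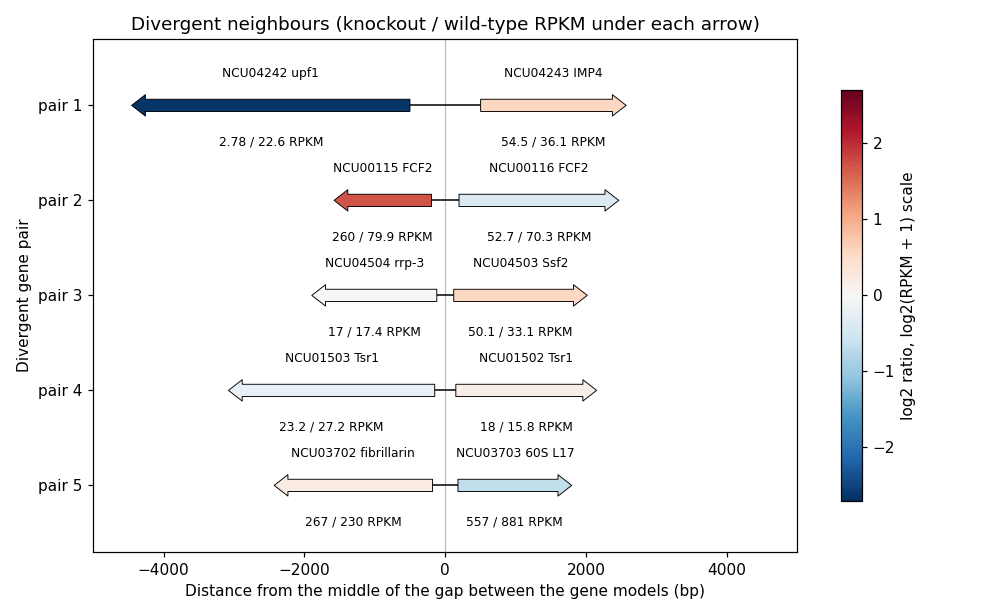
Gene models of 5 divergent pairs drawn to scale by distance (bp) from the middle of the gap between them, coloured by log2 ratio, with knockout and wild-type RPKM under each arrow. In pair 1 upf1 is at 2.78 and 22.6 RPKM beside IMP4 at 54.5 and 36.1 RPKM, and in pair 2 the FCF2 neighbours go in opposite directions.

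Gene model length went with the ratio across the whole table but showed little rank correlation with it among the members. The 6 members of 936 to 1216 bp had a median log2 ratio of 0.56, beside 0.34 for eligible genes of that length. The 2 shorter members had -0.28, beside 0.56, and the 7 members of 1216 to 1472 bp had -0.069, beside 0.31. The Spearman rho of log2 ratio with model length was -0.25 across the 7367 eligible genes and -0.068 across the 52 members, whose models ran from 751 to 5735 bp with a median of 1806 bp. The rho of ratio with level was close to 0 among the members (rho 0.026). The 41 members whose gene model was shorter than its genomic span by over 20 bp, and so contains introns, had a median log2 ratio of 0.10, and the 11 others had 0.29. Over all eligible genes the same split gave 0.15 and 0.18.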

How the data were processed

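RNA was sequenced from 1 pooled library per strain. Raw read counts and RPKM values per gene are those of the authors' deposited table, per the file headers. The submitters' processing notes name Bowtie 0.12.2. Build, annotation, counting method and strand setting: not given in the sources used here. Values of overlapping genes and of near-identical copies are therefore uncertain. Library totals (59645570 and 29546475, knockout and wild type) were recovered from reads, RPKM and the span of genes without introns. Depth sets the precision: a count of 0 allows 3 reads, which at 1 kb is 0.0503 and 0.102 RPKM.

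The log2 ratio used RPKM with a pseudocount of 1, which understates differences of weakly expressed genes. Eligible genes had 5 RPKM or more in 1 library or both, and 2-fold was the threshold. PCR copies among reads are not independent molecules, as no molecular identifiers are mentioned. The ratio and interval code was tested on simulated data. Python 3.11.15, scipy 1.17.1 and, for TMM, edgeR 4.0.16 were used. RefSeq's gene table of assembly NC12 gave symbols only, and all 52 members matched.

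The members and lists were chosen with earlier results of these data known. Roles were assigned by patterns in the description and changed by hand for 23 members. The rule for named genes took upf1, the 10 highest and 10 lowest ratios, the 5 most abundant members, the extremes of each role, the U3 proteins and the wider-list genes past 2-fold, 30 genes in all. Other genes were named after their values were seen. Alternatives were pseudocounts of 0.1 and 5, no filter or 20 RPKM, centring on the median gene, TMM scaling, centring in 8 bins of gene model length, and leaving out members named mitochondrial or with overlapping gene models.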

Additional observations from a re-analysis of the deposited data

How the results depend on the processing

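The count of 1 member 2-fold higher and 0 lower held under the 9 alternatives fixed in advance. With length centring PNO1 (NCU07956) was the lowest member and fell just short of 2-fold lower. Its log2 ratio was -0.98 there and -0.42 in the main setting. Of these, dropping the filter could not change the count, as all 52 members passed it. Neither could leaving out members named mitochondrial. The higher count was 5 at 1.5-fold and 0 without the members sharing a protein name, both added after the data were seen. The median log2 ratio of the members, 0.13, has no firm sign: TMM scaling gave -0.047, subtracting the median gene gave -0.022 and length centring gave 0.021, and the same settings moved the median of all eligible genes from 0.15 to -0.020, 0 and 0. The log2 ratio of NCU00115 lay between 1.35 and 1.70 over its alternatives. The interquartile width of the members ran from 0.40 to 0.55, and that of all eligible genes from 0.79 to 1.02. The small subunit, large subunit and unplaced medians changed sign under at least 1 scaling, the RNA modification median stayed between 0.057 and 0.24, and the nuclease and helicase median stayed below 0 but had no value at 20 RPKM, where 4 of the named genes had none either. With length centring 0 genes of the wider list were 2-fold higher, as the RNA polymerase I polypeptide gene NCU05251 came to 0.80. Of the 30 genes named by rule, IMP3 and UTP10 changed sign, both under a scaling. The sizes of log2 ratios depended on the scaling too, in both directions. Length centring took efg-1 from 0.77 to 0.43, mis3 from 0.51 to 0.17 and the RNAse III gene from 0.51 to 0.20. It raised Kre33 from 0.38 to 0.49. With length centring efg-1 therefore lay below NCU09131 (0.71), Kre33 and Rsa4 (0.48). TMM scaling gave 0.60 for efg-1 and 0.33 for mis3. No member is described as mitochondrial, so that alternative removed none. With 1 library per strain, variation between cultures could not be measured.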
